A study of Mus musculus with 2 samples.

Results

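Gonadotropes are the cells of the anterior pituitary that make luteinizing hormone and follicle-stimulating hormone. They were taken here as barcodes with at least 250 genes, at most 20% mitochondrial unique molecular identifiers (UMIs), at least 2% of UMIs from Cga and at least 0.5% from Lhb. Barcodes with 10 or more UMIs of Tshb, 10% or more of Gh or of Prl, or 1% or more of Pomc were left out. This gave 550 gonadotropes of 13663 barcodes, 265 of 6546 in library 1 and 285 of 7117 in library 2. The tissue was whole pituitary from C57BL/6 males (an inbred mouse strain) aged 7 weeks, housed singly, with no treatment or genetic change named in the labels. Glands were dispersed by enzyme digestion for 4 h, and cells of 71 to 82% viability were profiled with 10x droplet chemistry that reads transcripts at the 3' end. Each library came from a pool of 3 glands, so animals within a pool cannot be told apart, and there was no second condition. Every comparison is therefore between cells of the same glands, and 2 pools are the only replicates. The ratio of Fshb to Lhb UMIs was used to cut each library's gonadotropes into 4 groups of nearly equal size, of which group 1 is called the low-ratio and group 4 the high-ratio group.

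Both gonadotropins are pairs of an alpha and a beta chain. Cga encodes the alpha chain, which they share with thyrotropin, and Lhb and Fshb encode the beta chains that give each hormone its identity. Most gonadotropes of a rodent make both hormones. Gonadotropin-releasing hormone from the hypothalamus acts on the receptor Gnrhr and drives both beta genes, with Egr1, the nuclear receptor SF-1 (Nr5a1) and Pitx1 acting at Lhb, while activins, acting through Smad proteins, favour Fshb, and inhibins, for which Tgfbr3l is a co-receptor in gonadotropes, oppose them.

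The 4 stretches below are the 250 bases before the RefSeq transcript start (GRCm38.p6) of genes of this class. They belong to both beta chains, to the shared alpha chain and to Tgfbr3l, which was higher in groups of cells with a larger share of either beta chain. Lhb is read from chr7:45420696-45420945 on the plus strand, Fshb from chr2:107059652-107059901 on the minus strand, Cga from chr4:34893529-34893778 on the plus strand and Tgfbr3l from chr8:4247964-4248213 on the plus strand. Capitals mark exact matches, on either strand, to AAGGTCA (SF-1), TAATCT or TAATCC (bicoid factors such as Pitx1), GGGGGCG (the core of an Egr site), TGAGTCA (AP-1) and GTCTAGAC (a Smad palindrome), letters that were chosen with these sequences in view.
Lhb: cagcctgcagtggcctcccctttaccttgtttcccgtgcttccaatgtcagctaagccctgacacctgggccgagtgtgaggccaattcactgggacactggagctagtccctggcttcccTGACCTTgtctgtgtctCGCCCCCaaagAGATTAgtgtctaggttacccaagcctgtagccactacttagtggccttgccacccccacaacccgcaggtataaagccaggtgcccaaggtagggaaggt
Fshb: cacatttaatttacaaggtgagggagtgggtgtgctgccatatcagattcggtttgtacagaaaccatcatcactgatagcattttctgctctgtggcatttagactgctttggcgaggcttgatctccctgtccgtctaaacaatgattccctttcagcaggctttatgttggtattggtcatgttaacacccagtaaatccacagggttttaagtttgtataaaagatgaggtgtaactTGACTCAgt
Cga: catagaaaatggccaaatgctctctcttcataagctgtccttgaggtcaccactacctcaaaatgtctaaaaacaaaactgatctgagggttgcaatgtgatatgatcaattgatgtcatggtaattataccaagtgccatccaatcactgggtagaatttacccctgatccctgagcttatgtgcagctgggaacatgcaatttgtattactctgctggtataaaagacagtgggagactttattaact
Tgfbr3l: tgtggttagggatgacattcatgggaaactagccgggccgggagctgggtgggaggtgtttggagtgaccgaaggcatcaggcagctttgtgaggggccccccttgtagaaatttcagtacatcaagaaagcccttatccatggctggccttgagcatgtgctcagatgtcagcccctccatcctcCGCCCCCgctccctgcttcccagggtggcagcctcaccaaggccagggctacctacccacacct
Counted back from the start, Lhb has the SF-1 letters from -129 to -123, the Egr core from -112 to -106 and the bicoid letters from -101 to -96, all on the reverse strand. Fshb has the AP-1 letters from -9 to -3, and Tgfbr3l the Egr core from -64 to -58. Cga has no match to any of the 6, which says only that these letters are not in this window. Of 32851 mouse promoters in windows of the same length, 4.08% hold the SF-1 letters, 14.8% the Egr core, 7.31% TAATCT, 6.25% TAATCC, 4.46% the AP-1 letters and 0.167% the Smad palindrome. A match is a description of the sequence and shows no binding.

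In the GENCODE annotation of the authors' assembly, Lhb (ENSMUSG00000100916) lies at chr7:45420820-45421897 and Fshb (ENSMUSG00000027120) at chr2:107056140-107059656. The starts of both genes given there lie inside the stretches above, which were cut before the RefSeq start. The Egr and bicoid letters marked for Lhb thus fall inside the gene as GENCODE places it. Lhb overlaps Ruvbl2 on the other strand, Cga overlaps Platr9 on the other strand, and Tgfbr3l overlaps the predicted gene Gm49320 on its own strand. No source used here says whether counting used the strand, so reads of such pairs may not be separable. Fshb and Gnrhr overlap no other gene.

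Libraries were alike in depth. Library 1 held 70813117 UMIs with a median of 10128 per barcode, and library 2 held 78861988 with a median of 10636. Gonadotropes made up 4.05% of barcodes in library 1 and 4.00% in library 2, with exact 95% binomial intervals of 3.58 to 4.55% for the first and 3.56 to 4.49% for the second, or 4.03 ± 0.0310% (SD, n = 2), where the intervals cover counting error only. There were 54 barcode sequences found in both libraries. Of the gonadotropes, 5 carried such a sequence, and none was a gonadotrope in both.

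Cga and Lhb chose the cells, so their levels are a description. The median gonadotrope of library 1 had 9875 UMIs, of which Cga gave 14.0%, Lhb 4.82% and Fshb 0.546%. The median of library 2 had 10531 UMIs, with 13.7%, 4.53% and 0.553%. Members lay between 2.02 and 36.7% for Cga and between 0.536 and 17.5% for Lhb. The lowest Cga inside the limit was 2.02% and the highest just outside it was 2.00%, while for Lhb the gap ran from 0.467% outside to 0.536% inside. Only 10 barcodes were kept out by Cga alone and 47 by Lhb alone. Of 619 barcodes past the Cga, Lhb and quality limits, 49 had too much Gh, 18 too much Prl and 9 too much Pomc, and 0 had 10 or more UMIs of Tshb.

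Markers that the rule did not use were present. Tgfbr3l had a UMI in 100% of gonadotropes of both libraries, Gnrhr in 89.1% and 89.8%, Nr5a1 in 60.8% and 64.6%, and Fshb in 99.6% and 98.6%. Endothelial cells, which should lack these transcripts, had median depths of 4636 and 4443 UMIs against 9875 and 10531. With every cell thinned to 1000 UMIs, Fshb was detected in 94.9 ± 1.81% of gonadotropes and 0.610 ± 0.862% of endothelial cells (SD, n = 2). At that depth Tgfbr3l was detected in 94.4 ± 2.03%, Gnrhr in 26.9 ± 0.159% and Nr5a1 in 9.86 ± 1.54% of gonadotropes, and none of the 3 in endothelial cells, of which there were 126 and 164, so that 0 allows up to 2.38% and 1.83%. Lhb itself was found in 6.62 ± 0.739% and Cga in 19.3 ± 3.08% of thinned endothelial cells. Whether these UMIs came from free RNA or from mixed barcodes was not tested.

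On the authors' own t-SNE map, 95.1% of gonadotropes of library 1 and 96.5% of library 2 had mostly other gonadotropes among their 15 nearest barcodes. A main group held 517 of the 550 cells. A second, separate group held 28, and 5 lay elsewhere (limits on the map were set after seeing it). All 28 cells of the second group had UMIs of at least 2 of 6 markers of pituitary stem cells (Sox2, Sox9, Cyp2f2, Aldh1a2, Aldh3a1, Lcn2), against 4 of 517 in the main group. The 28 cells had a median of 16912 UMIs and 2.29% Lhb, where the main group had 10154 and 4.84%. They came from both libraries, 12 and 16 cells, and 13 of them stood in the high-ratio group against 4 in the low-ratio group. The study's protocol gives an expected multiplet rate of 7.6%; no doublet caller was run, and whether these barcodes hold 2 cells was not tested.

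**Figure D1:**
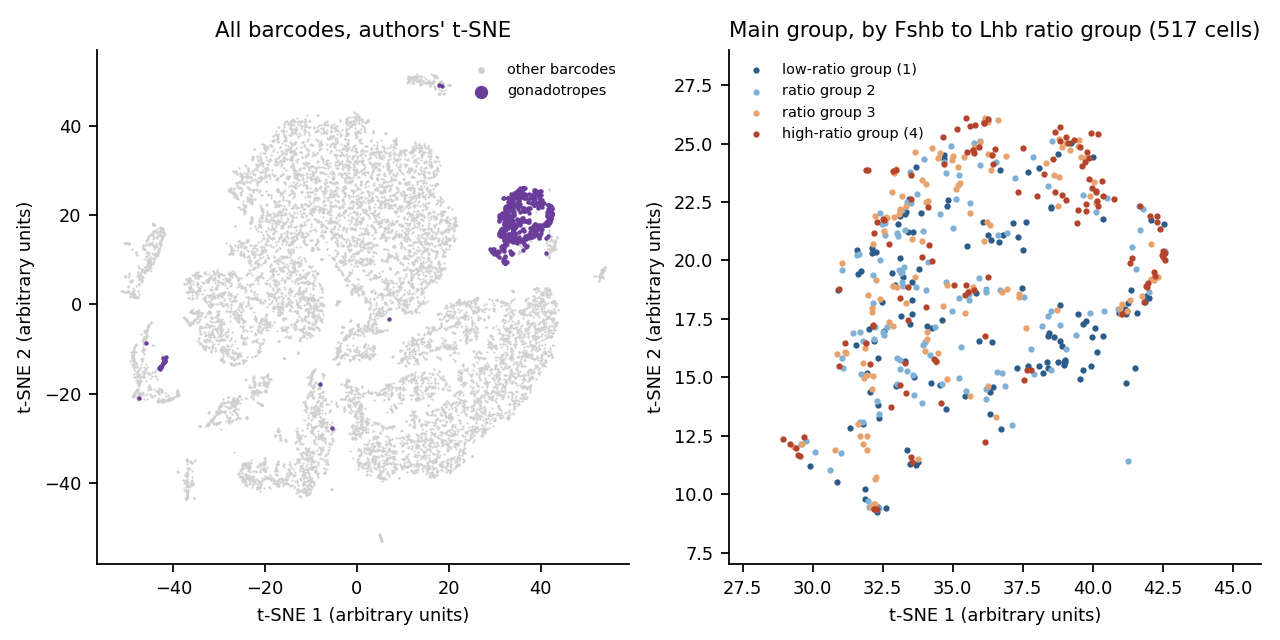
The authors' t-SNE coordinates of every barcode, with the 550 gonadotropes in purple (left) and the 517 gonadotropes of the main group coloured by their group of the Fshb to Lhb ratio (right). Axes are in arbitrary units; the main group of 517 holds 133 low-ratio and 124 high-ratio cells.

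Fshb UMIs were fewer than Lhb UMIs in nearly all gonadotropes. Droplet counting of 3' ends takes 1 tag per captured molecule, so the ratio is of tags and is not scaled by transcript length. Summed over cells, there were 0.108 Fshb UMIs per Lhb UMI in library 1 and 0.123 in library 2. The median cell had a ratio of 0.104 and 0.122, with the middle of the distribution from 0.0671 to 0.177 in library 1 and from 0.0772 to 0.199 in library 2 (25th to 75th percentile). Only 4 cells had more Fshb than Lhb UMIs, the highest at a ratio of 1.42, and 5 had no Fshb UMI, 1 in library 1 and 4 in library 2. Since Lhb of at least 0.5% was required, a cell with Fshb and little Lhb could not enter. Letting cells in with Fshb of at least 0.1% in its place gave 270 cells in library 1 and 289 in library 2, against 265 and 285.

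Groups of the ratio differed in both hormones. The summed ratio was 0.0467 and 0.0513 in the low-ratio group (libraries 1 and 2), and 0.253 and 0.296 in the highest. The high-ratio group had less Lhb than the low-ratio group, with medians of 2.55 and 2.18% of UMIs against 5.60 and 5.69%. It had more Fshb than the low-ratio group, with 0.667 and 0.722% against 0.232 and 0.305%. Group 3 had 0.664 and 0.755% Fshb and 5.14 and 4.59% Lhb. The high-ratio group thus differed from group 3 mainly by less Lhb and was not the richer in Fshb in both libraries. Depth was close, at medians of 9748 and 10154 UMIs in the high-ratio and 9977 and 9992 in the low-ratio group. To see how far the spread of ratios came from counting, each UMI was put at random into 1 of 2 sets of equal chance, cells were ranked on the first set and the ratio was read in the second. The high-ratio group then had 4.84 and 4.96 times the ratio of the lowest in the unseen set, against 5.79 and 5.70 times in the set that ranked them. The 2 sets of a cell gave ratios that correlated at a Spearman rho of 0.892 over the 265 cells of library 1 and 0.909 over the 285 of library 2, as a description of cells that share a library.

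Across cells, shares of UMIs from Lhb and Fshb went weakly together, at a Spearman rho of 0.335 and 0.223 in libraries 1 and 2. Lhb and Cga went together more closely, at 0.446 and 0.459. The ratio had little relation with depth, at -0.0156 and 0.0899. These values are over cells of 1 library each and carry no test.

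**Figure D2:**
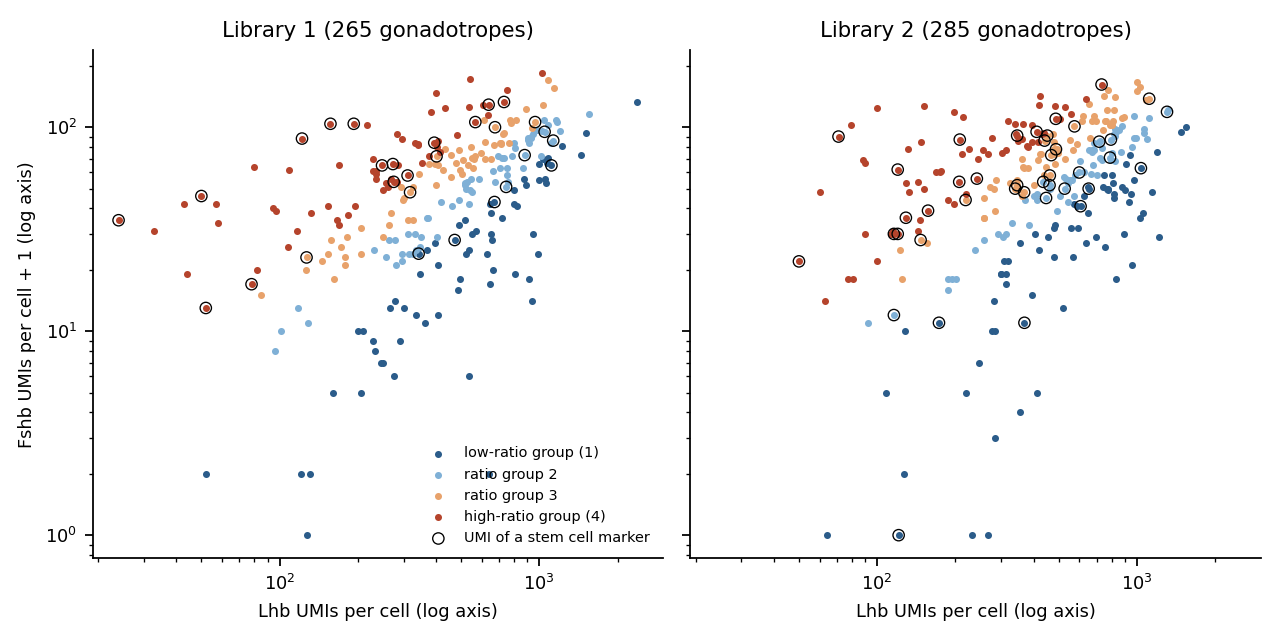
Lhb UMIs (x, log axis) against Fshb UMIs plus 1 (y, log axis) in each of the 265 and 285 gonadotropes, coloured by ratio group, with rings on cells with a UMI of a stem cell marker. The groups form diagonal bands, and the 5 cells without Fshb sit on the lowest line.

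To place gonadotropes among the hormone cells of the same glands, their UMIs were summed per library and compared with 3 other classes: Gh-rich cells (at least 30% of UMIs from growth hormone), Prl-rich cells (at least 15% from prolactin and under 30% from Gh) and Pomc-rich cells (at least 5% from proopiomelanocortin). Levels are in CPM, the usual scaling of counts by library total, here over UMIs outside the 7 hormone transcripts, given per library or as mean ± SD (n = 2). Log2 fold changes are against the equally weighted mean of the 3 classes. Their standard error (SE) was worked back from the test, as the absolute log2 fold change over the square root of the F statistic. Every adjusted p comes from the quasi-likelihood test of edgeR, run on 13244 genes. The spread behind it is that between 2 pools, which need not be the spread between animals. Of these genes, 3186 (24.1%) were higher and 2852 (21.5%) lower at an adjusted p under 0.05, so a call in this comparison is common. Against single classes the share called either way was 54.9% for Gh-rich, 51.9% for Prl-rich and 30.6% for Pomc-rich cells. Genes named for size also had to lie on the same side of all 3 classes in both libraries, which 2330 (17.6%) did as higher and 1930 (14.6%) as lower. The median gene differed by a log2 value of -0.02.

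Genes for the receptor, the hormone and the co-receptor were far higher in gonadotropes than in the other classes. Fshb had 6786 and 7160 CPM in gonadotropes of libraries 1 and 2, and between 9.17 and 19.9 in every other class and library. Tgfbr3l had 5989 and 5457 CPM against 12.5 to 19.1. Gnrhr, the receptor for gonadotropin-releasing hormone, had 413.7 and 385.4 CPM against 0.597 to 1.73, and no group overlapped another. The log2 fold changes were 8.88 (SE 0.0711) for Fshb, 8.59 (SE 0.0531) for Tgfbr3l, 8.60 (SE 0.108) for Gnrhr and 6.04 (SE 0.143) for Nr5a1, with adjusted p-values by edgeR of 2.64e-15, 8.73e-31, 1.48e-28 and 3.39e-22. The cells were chosen by hormone transcripts that mark this class, and these 4 genes were picked as its markers with earlier results known, so the calls describe the class.

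The other genes with the highest fold changes included secreted factors and structural genes. Grem1, a secreted antagonist of BMPs, had 107 and 123 CPM in gonadotropes and at most 0.597 elsewhere, with 0 in both libraries of Pomc-rich cells. Spp1, which encodes osteopontin, had 2447 and 2802 CPM against 0.866 to 12.4 (log2 fold change 8.31, SE 0.177, adjusted p = 2.57e-05; 9.11 in library 1 alone). Nr0b1, the nuclear receptor DAX-1 that represses SF-1, had 93.2 and 85.7 CPM against 0.120 to 3.53. Above 50 CPM the same rule also named Speer4e, Nefl (a neurofilament), Aebp1, Sult5a1 (a sulfotransferase), Ihh (a hedgehog ligand), Nmu (the peptide neuromedin U), Dgkk (a diacylglycerol kinase) and Spock1. Their mean levels ran from 50.5 CPM for Ihh to 170 for Speer4e, which was at 0 in Pomc-rich cells and belongs to a family of near-identical copies whose reads counting could split.

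A list of transcription factors of the gland had 29 genes tested, with 16 higher, 6 lower and a median log2 fold change of 0.41. Foxp2, a forkhead factor, had 105 and 97.9 CPM, against at most 0.930 in Gh-rich and Prl-rich cells and 15.6 and 25.4 in Pomc-rich cells. Gata2, a zinc finger factor shared with thyrotropes, had 116 and 103 CPM against 0.841 to 17.3, and Isl1, a LIM homeodomain factor, 121 and 92.2 against 1.73 to 5.64. Pitx1, which acts throughout the anterior lobe, had 379.4 and 371.6 CPM against 79.6 to 122 (log2 fold change 1.96, SE 0.0565, adjusted p = 2.09e-20 by edgeR). The embryonic factors Hesx1 and Lhx4 were low, at 3.25 and 9.70 CPM for Hesx1 and 6.03 and 7.68 for Lhx4, and at or near 0 in the other classes, and DESeq2 did not call Hesx1. Pou1f1, the factor of growth hormone and prolactin cells, had 9.74 and 5.66 CPM against 313 to 565 in those 2 classes and 6.06 and 7.76 in Pomc-rich cells. Egr1, the factor that acts at the Egr site of Lhb, was not called (234.7 and 175.5 CPM, log2 fold change -0.30, SE 0.321, adjusted p = 0.530).

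Of 34 genes of signalling by gonadotropin-releasing hormone, 17 were higher and 5 lower, with a median log2 fold change of 0.35. Rgs4, a regulator of G protein signalling, had 394 and 389 CPM against 1.64 to 47.6 (log2 fold change 6.01, SE 0.0852, adjusted p = 2.64e-27). Prkcb, a protein kinase C, had 118 and 121 CPM against 4.23 to 6.82. Gnaq, the G protein alpha subunit that couples to the receptor, was 0.79 higher (SE 0.117, adjusted p = 3.21e-06 by edgeR), as was Gnas by 0.57 (SE 0.0201). Plcb1, a phospholipase C, was lower, at 12.1 and 8.09 CPM against 12.7 to 33.4.

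The list of activin, inhibin, follistatin and BMP genes had 9 of 29 higher and 4 lower, at a median of 0.17. Of all genes tested, 24.1% were higher and 21.5% lower. Inhbb, the beta B chain of activin B and inhibin B, had 67.7 and 64.3 CPM against 0.720 to 2.82 (log2 fold change 5.25, SE 0.206, adjusted p = 1.71e-17 by edgeR). Tgfbr3, the inhibin co-receptor betaglycan, had 93.2 and 113 CPM against 8.53 to 54.0. Inhba, the beta A chain, was higher but low, at 2.78 and 4.45 CPM against 0.240 to 0.896. Igsf1, a membrane protein, had 13.5 and 12.5 CPM against 38.1 to 309. Gonadotropes had more stem marker RNA than Gh-rich or Prl-rich cells, with the 6 markers at 151 and 201 CPM in sum against 22.1 to 41.4 (44.5 and 150.0 in Pomc-rich cells), and leaving out the members with any such UMI, 28 in library 1 and 42 in library 2, turned the count of this list to 5 higher and 7 lower of 28. Inhbb, Tgfbr3 and Igsf1 kept their calls without them. Members with 2 or more of the markers were 14 in library 1 and 18 in library 2, at median depths of 16264 and 17282.5 UMIs. Sox2, itself 1 of the 6 markers, had a log2 fold change of 1.31 (SE 0.217), which turned to -0.97 without the 7.6% deepest members.

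Some single receptor genes differed strongly, where 24.1% of all genes tested were higher and 21.5% lower. Of 17 tested receptors for neuropeptides, amines and growth factors, 6 were higher and 3 lower: Adcyap1r1, the receptor for the peptide PACAP, had 36.6 and 41.2 CPM against 0 to 1.41, and Fgfr1 67.3 and 62.7 against 2.35 to 9.17. Of 24 steroid and nuclear receptors, 5 were higher and 6 lower, close to the shares of all genes. Their median was -0.0099, beside -0.0155 for all genes. The estrogen receptor Esr1 had 137 and 141 CPM against 5.64 to 100.5 and was highest in gonadotropes in each library, with a log2 fold change of 2.17 (SE 0.108).

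Of 19 genes that glycosylate the hormones, 10 were higher and 5 lower, with a median of 0.59. St6gal1, which adds sialic acid, had 51.0 and 44.1 CPM against 0 to 29.4 and was higher by 2.28 (SE 0.193), or 4.68 in library 1 alone, where Pomc-rich cells had 0. Mgat5, which branches N-glycans, was higher by 2.24 (SE 0.115). Chst8, which sulfates the sugar of luteinizing hormone, had 78.8 and 80.9 CPM, far above Gh-rich and Prl-rich cells (8.65 to 19.9) but near Pomc-rich cells (70.2 and 67.7), with an adjusted p = 0.252 by edgeR against the last. Of 33 granule and exocytosis genes, 16 were higher and 9 lower. Scg2, a granin of the gonadotrope granule, had 15126 and 16076 CPM against 451 to 1991, Chga, chromogranin A, 4604 and 3843 against 122 to 1145, and the prohormone convertase Pcsk1 531 and 585 against 48.5 to 73.4. Chgb, chromogranin B, had 1310 and 1300 CPM, below the 9805 and 10348 of Prl-rich cells, and did not pass against Gh-rich (1363 and 1752) or Pomc-rich cells (871 and 731).

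Sterol synthesis and ribosomal protein genes were mostly lower. Of 16 sterol and lipid synthesis genes, 11 were lower and 2 higher, with a median of -0.61, among them Scd1 at 3.25 and 2.43 CPM against 6.06 to 47.7. Of a sample of 20 ribosomal protein genes, 18 were lower and 1 higher, at a median of -0.42. Of 37 immediate early and heat shock genes, 13 were lower and 8 higher: Hspa1a, a heat shock protein, had 1035 and 958 CPM against 2506 to 4044, and Fos and Jun were lower, at log2 fold changes of -0.87 (SE 0.0833) and -0.90 (SE 0.0705), while Fosb was 0.95 higher (SE 0.0938). Fos and Jun were not called without the library block. A part of the digestion of 4 h in these levels was not tested. Of 13 transcripts of the mitochondrial genome, a group chosen after its values were seen, 12 were higher and 0 lower, with a median of 0.75. Of genes that lay below each class in both libraries, Efemp1, an extracellular matrix protein, had 7.42 and 5.66 CPM against 89.3 to 179, and Dlk1, a Notch-like membrane protein, 133 and 142 against 509 to 7302. The same rule named Upk3a, Sparcl1, Ctxn3, Asic4 and Nqo1, with log2 fold changes between -4.65 and -3.61, and Esm1, at 0 UMIs in gonadotropes and thus at least 290.9-fold lower than in Pomc-rich cells (3 counts over both libraries as the limit), where it had 169 and 208 CPM. Esm1 was also low in Gh-rich and Prl-rich cells, at means of 0.797 and 0.613 CPM, where the same limit in gonadotropes is 0.648 CPM. Ctxn3 did not pass against Pomc-rich cells, nor Esm1 against Prl-rich cells.

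**Figure D3:**
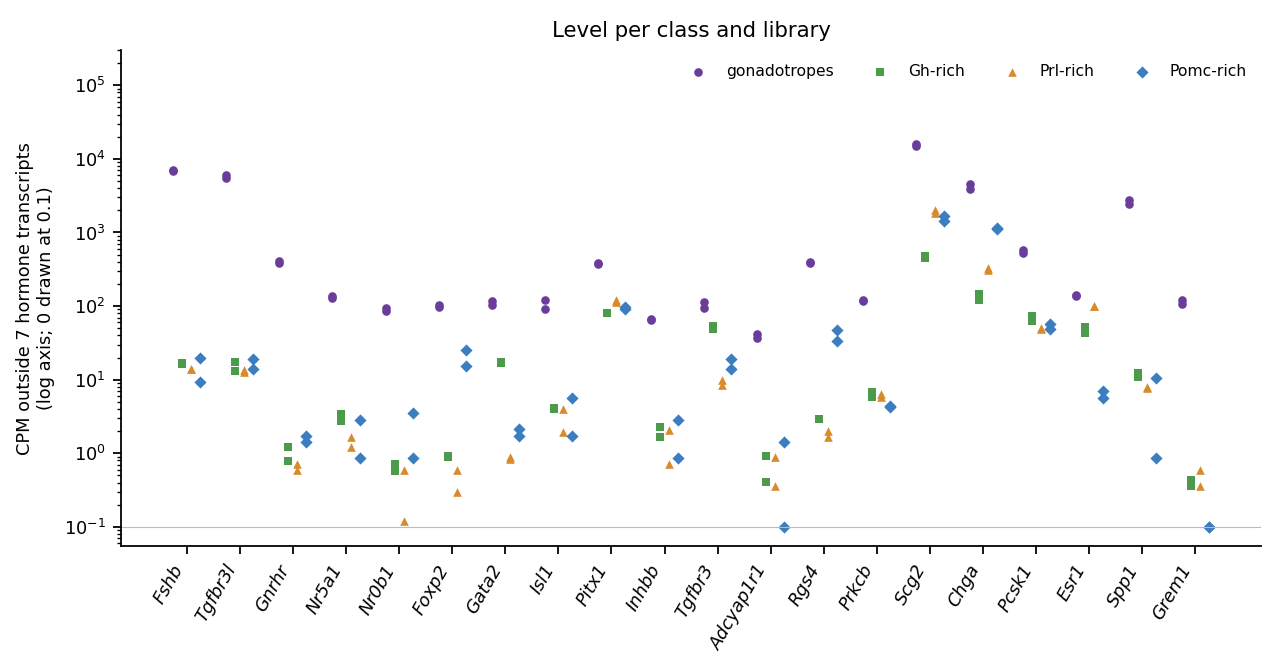
CPM (log axis, 0 drawn at 0.1) of 20 genes in each class, 1 point per library. Gonadotropes (purple) are above the other 3 classes in both libraries for every gene shown.

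Inside the gonadotropes, the high-ratio group was compared with the low-ratio group, over 7489 genes and all 4 groups in each library. Lhb and Fshb made the groups and were not tested. At an adjusted p under 0.05, 42 genes (0.561%) were higher and 85 (1.13%) lower in the high-ratio group. The split of calls depends on scaling: without TMM factors the median gene moved by 0.111 and 68 were higher and 37 lower. DESeq2 called 4 higher and 21 lower, and gave no adjusted p for 6969 of the 7489 genes. Leaving out the library block gave 25 and 37. Stem marker RNA also moved with the ratio: 15 of 66 and 14 of 71 cells of the high-ratio group had a UMI of a stem marker, against 4 of 67 and 6 of 72 of the lowest, and the 6 markers summed to 439 and 268 CPM against 34.1 and 162.

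The high-ratio group had less Tgfbr3l than the low-ratio group. Tgfbr3l, the inhibin co-receptor, had 6828 and 6032 CPM in the low-ratio group and 4210 and 3680 in the highest, and groups 2 and 3 lay between 5756 and 7110. The difference was -0.71 on the log2 scale (SE 0.0574, adjusted p = 5.61e-12 by edgeR), nearly the same in both libraries at -0.70 and -0.71. Among cells ranked by the ratio separately below and above the median Lhb share, Tgfbr3l was not called (-0.15, SE 0.0767, adjusted p = 0.589 by edgeR). With high Fshb share it was higher, by 0.80. Cga, the alpha chain, had 202210 and 173693 CPM in the low-ratio and 133151 and 140080 in the high-ratio group; its share chose the cells, so this is a description with no test, although it is 1 of the 85 genes counted as lower. Gnrhr did not pass, at 382 and 380 CPM in the low-ratio and 383 and 372.5 in the high-ratio group (log2 difference -0.01, SE 0.115, adjusted p = 0.983). Nr5a1 did not pass either (log2 difference -0.26, SE 0.183, adjusted p = 0.674), and its values in the 2 groups overlapped.

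Among genes that mark the class, Spp1 was lower in the high-ratio group (1471 and 2128 CPM against 2622 and 2723, log2 difference -0.58, SE 0.0921, adjusted p = 0.00206), as were Aebp1 (-1.06, SE 0.230) and Sult5a1 (-1.02, SE 0.191). Aebp1 was not called without cells with a stem marker, Sult5a1 without cells with 2 or more, and neither with stricter limits (Cga at least 4% and Lhb at least 1%). Spp1 was not called without the library block or with the stricter limits, and without cells with a stem marker its difference was -0.37. Dgkk was higher, at 105 and 171 CPM against 69.0 and 58.7 (log2 difference 1.12, SE 0.220, adjusted p = 0.00187 by edgeR). It was not called among cells ranked separately below and above the median Lhb share (0.49, SE 0.237, adjusted p = 0.542 by edgeR). With low Lhb share it was higher, by 2.02. The chemokine Cxcl14 was lower by a log2 value of -0.78 (SE 0.0993), or -0.37 without cells with a stem marker. Spp1 and Cxcl14 were chosen for this comparison after their values were seen.

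Few of the listed regulators were called. In the signalling list 1 of 25 was higher, Gnas, which encodes the stimulatory G protein alpha subunit, at 12460 and 12017 CPM against 9922 and 9583 (log2 difference 0.33, SE 0.0539, adjusted p = 0.000128). In the activin and inhibin list 1 of 16 was called, Tgfbr3l; Inhbb had a difference of -0.20 (SE 0.243, adjusted p = 0.850 by edgeR). In the transcription factor list 1 of 21 was called, Gata2, lower by a log2 value of -0.78 (SE 0.213, adjusted p = 0.0438), and it was not called without TMM factors, without the block or without cells with a stem marker. None of 14 steroid receptors, 7 receptors, 14 glycosylation genes, 11 sterol genes or 20 folding genes passed by edgeR. Medians of these lists lay between -0.14 and 0.17, beside -0.00464 for all genes.

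Granule genes divided. Scg2 was lower, at 11637 and 13129 CPM against 15082 and 16943 (log2 difference -0.37, SE 0.0529, adjusted p = 7.25e-06), and so were Scg5, a chaperone of the convertase PC2, by -0.38 (SE 0.0638) and Pcsk1n, the proSAAS inhibitor of PC1, by -0.45 (SE 0.0567). Pcsk2, the convertase PC2 itself, was higher, at 276 and 281 CPM against 215 and 176 (log2 difference 0.52, SE 0.140, adjusted p = 0.0426 by edgeR), but was not called without the library block. Without cells with a stem marker the Scg2 difference was -0.22. Scg2 was not called with the stricter limits or without the deepest members. Scg5 was not called without the deepest members or without cells with 2 or more stem markers. Among cells ranked by the ratio separately below and above the median Lhb share, neither was called (0.091 for Scg2 and 0.075 for Scg5). With the main settings the other 27 of the 31 tested genes were not called. Among channels 1 of 19 passed, the potassium channel Kcnk2, at 120 and 126 CPM against 61.1 and 71.1, which was not called without cells with a stem marker.

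Lower in the high-ratio group were 3 of 30 immediate early and heat shock genes. Jund had 588 and 608 CPM against 743 and 978 (log2 difference -0.52, SE 0.0988, adjusted p = 0.00109 by edgeR), Fosb 93.8 and 129 against 179 and 219 (not called without cells with 2 or more stem markers or with the stricter limits), and the co-chaperone Dnajb1 202 and 222 against 345 and 393. DESeq2 did not call Jund (adjusted p = 0.0717). Dnajb1 was not called among cells ranked by the ratio separately below and above the median Lhb share. Fos was not called (log2 difference 0.49, SE 0.318, adjusted p = 0.721 by edgeR). Ppp1r15a, a stress-induced phosphatase subunit named by the rule of largest change, was lower by a log2 value of -1.09 (SE 0.210). Of 20 sampled ribosomal protein genes 4 were lower and 0 higher (median -0.19), with Rpl3 at 2336 and 2145 CPM against 3108 and 2915; without TMM factors 1 of the 20 was lower, and without cells with a stem marker Rpl10, Rpl41 and Rpl23 were not called. Of 12 mitochondrial transcripts 8 were lower and 1 higher, with mt-Nd1 lower by -0.56 (SE 0.0633) and mt-Nd5 higher by 0.40 (SE 0.0993). The call of mt-Nd5 was lost without the library block, with the stricter limits and by DESeq2. The share of mitochondrial UMIs was 6.98 and 6.47% in the high-ratio and 7.86 and 7.42% in the low-ratio group. Erythrocyte marker RNA was uneven, at 5245 CPM in the low-ratio group of library 1, 54.1 in that of library 2 and 48.9 and 45.8 in the high-ratio groups; its part in these results was not tested.

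**Figure D4:**
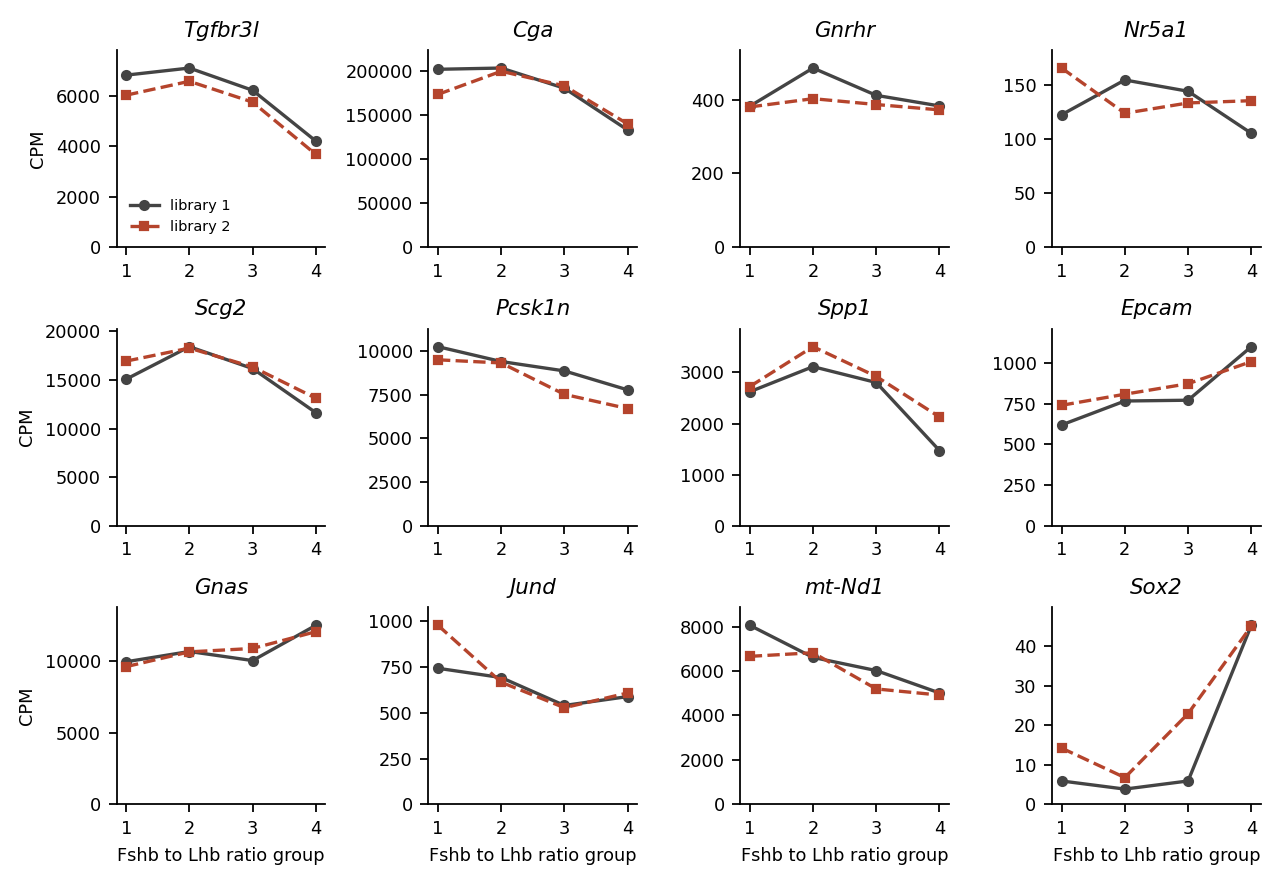
CPM of 12 genes in the 4 groups of the Fshb to Lhb ratio, from lowest (1) to highest (4), 1 line per library and axes from 0. Tgfbr3l and Scg2 drop mainly in the high-ratio group in both libraries, Gnrhr differs little between the outer groups, and Sox2 is highest in the high-ratio group.

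The genes with the largest rise toward the high-ratio group were Cpxm2, Sox2, Plat, Slc9a3r1, Ahnak, Cd24a, S100a6, Rbpms, Tubb3 and Txnip, with log2 differences from 1.61 for Txnip to 2.32 for Cpxm2. Sox2, the pituitary stem cell factor, had 45.3 and 45.1 CPM in the high-ratio group against 5.91 and 14.2 in the lowest (adjusted p = 0.00231). Once cells with a stem marker UMI were left out, 8 of these 10 genes were too low to be tested (Sox2 by the choice of cells itself), Txnip was not called and Tubb3, a neuronal tubulin, was still higher (log2 difference 2.07, SE 0.423). In all, 15 of the 42 higher and 44 of the 85 lower calls remained then. Toward the low-ratio group the rule named Prmt8, Gcc2, Trim9, Psme3, Tsc1, Polr3d and Tmem251 besides the genes above, with log2 differences from -1.01 for Tmem251 to -1.97 for Prmt8. Without the library block Prmt8, Gcc2 and Tmem251 were not called, and without cells with a stem marker Prmt8, Gcc2, Tmem251, Trim9 and Tsc1 were not. Of the genes with the largest changes, several moved by over 1.5 times when 1 library was left out. In library 1 alone the log2 difference was 3.21 for Cpxm2, 2.89 for Sox2, 4.03 for Plat, 2.94 for Slc9a3r1, 2.48 for Cd24a, 2.26 for Rbpms, 2.27 for Tubb3 and -1.01 for Prmt8. In library 2 alone it was 1.48 for Cpxm2, 1.38 for Plat, 1.11 for Cd24a and -3.24 for Prmt8.

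Since the high-ratio group had both less Lhb and more Fshb than the low-ratio group, the same cells were also ranked by each hormone alone. Of 4 groups cut by Lhb share, 390 genes were higher and 477 lower in the one with least Lhb than in the one with most; between the groups with most and with least Fshb, 194 were higher and 230 lower. Stem marker RNA moved with these rankings too: 14 of 67 and 23 of 72 cells with least Lhb had a stem marker UMI, against 4 of 66 and 4 of 71 with most. By Fshb they were 5 of 67 and 16 of 72 cells with least and 6 of 66 and 5 of 71 with most, and their part in these counts and differences was not tested. Tgfbr3l was lower with low Lhb, by a log2 value of -1.67 (SE 0.0598), and higher with high Fshb, by 0.80 (SE 0.0726). Scg2 did the same at -1.25 and 0.78, Spp1 at -1.97 and 1.24, Cxcl14 at -1.37 and 0.59 and Gata2 at -1.62 and 0.82, and Gnrhr, not called across the ratio, at -0.53 and 0.74. These genes were higher in cells with more of either hormone. When cells were ranked by the ratio separately among cells below and cells above the median Lhb share, an alternative chosen after the data were seen, none of these 6 was called, with log2 differences between -0.15 and 0.24.

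Other genes gave other patterns. Epcam, an epithelial adhesion molecule singled out after its values were seen, had 1099 and 1008 CPM in the high-ratio and 619 and 740 in the low-ratio group (log2 difference 0.64, SE 0.0906, adjusted p = 7.25e-06). It was higher with high Fshb (0.50, SE 0.0894), did not pass for Lhb (0.19, SE 0.0788) and kept its call in that last ranking (0.58, SE 0.0960); its adjusted p ran from 1.22e-09 to 0.105 over the alternatives. Jund, Fosb and Ppp1r15a were lower with high Fshb, by -0.85, -1.54 and -1.28, and were also lower in that ranking, by -0.75, -1.03 and -1.20. Pcsk2, Pcsk1n, Rpl3 and mt-Nd1 were called there too, and the last 3 were also lower with low Lhb, by -0.55 for Pcsk1n, -0.34 for Rpl3 and -0.37 for mt-Nd1. Pcsk1n did not pass for Fshb (0.11). That ranking gave 7 genes higher and 46 lower, of which 3 and 25 were among the 42 and 85.

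**Figure D5:**
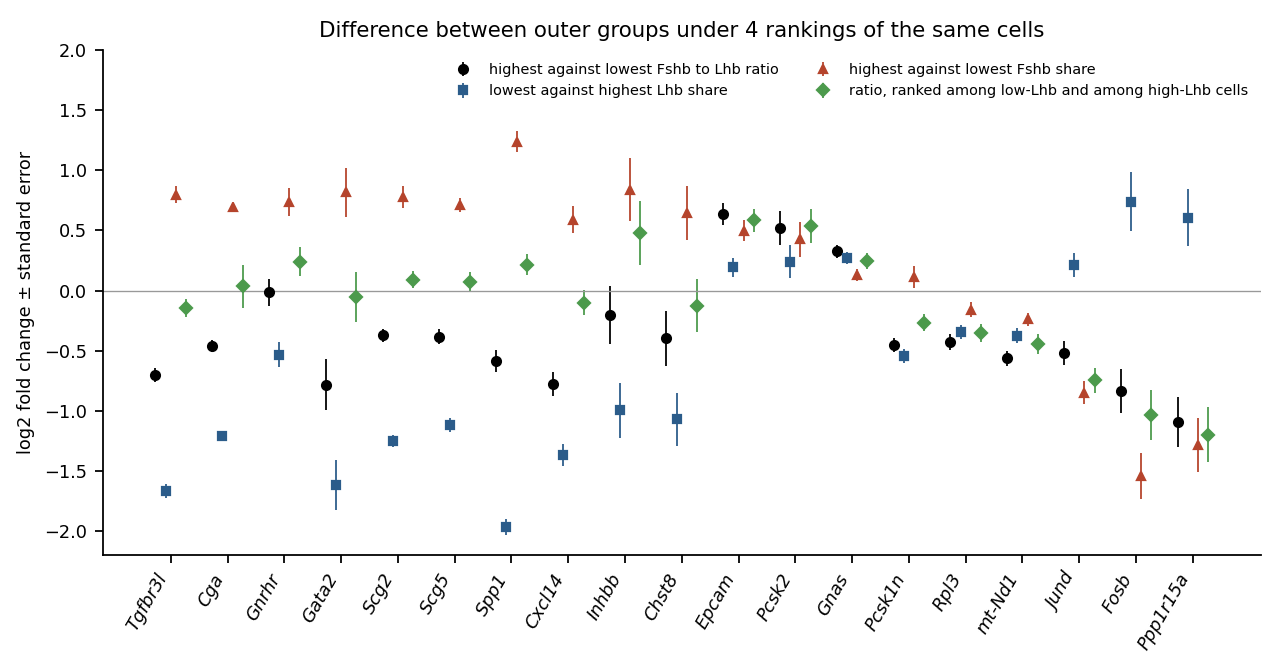
Log2 fold change with standard error worked back from the F statistic (edgeR fits over 8 columns, 2 libraries) of 19 genes under 4 rankings of the same gonadotropes. Cga, which chose the cells, is shown as a description. From Tgfbr3l to Chst8 the differences for low Lhb (blue) and high Fshb (red) have opposite signs, while Epcam, Pcsk2, Gnas, Rpl3 and mt-Nd1 each keep their sign under all 4.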

How the data were processed

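The deposited matrix holds raw UMI counts per gene and barcode, which the authors made with tools named as Cell Ranger and STAR, on mm10, per the submitters' processing notes (versions: not given in the sources used here). The deposited t-SNE coordinates are scores without a unit. The number at the end of a barcode was taken as the pool. Counts were summed per class or ratio group and library and tested with edgeR 4.0.16 (R 4.3.3; TMM without the 7 hormone transcripts, filterByExpr, robust quasi-likelihood fit, Benjamini-Hochberg at 0.05). Library was a block, since all classes of a number come from the same 3 glands. Each fit had 8 columns and 3 residual degrees of freedom; the common biological coefficient of variation was 0.0555 between classes and 0.0760 between ratio groups. On simulated data with 12826 and 7435 genes, the fits recovered 70% and 64% of genes raised 1.5-fold, 100% of those raised 2-fold or 4-fold, and 86% and 92% of those lowered to 0.5 times. The simulation drew counts at a coefficient of variation of 0.05, below that of either fit, and changed only well-counted genes. These rates are therefore not the power for genes with few counts in the real data.

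Genes were named for size if called, on 1 side in each library (and against each class), with at least 50 CPM (classes) or 20 CPM (ratio groups) on the higher side: the 15 highest and 8 lowest fold changes between classes, 10 and 10 between ratio groups, without predicted and mitochondrial genes. Members and lists were chosen with earlier results of these data known. Folds use edgeR's prior count. No doublets were removed; the Gh, Prl and Pomc limits bar mixed barcodes in part. Alternatives included DESeq2 1.42.0, other scalings, filters, limits and rankings. Samples were 2 pools, so the spread between animals is unknown.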

Additional observations from a re-analysis of the deposited data

How the results depend on the processing

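Counts of genes between the high-ratio and low-ratio groups (42 higher, 85 lower) moved most with the settings: to 4 and 21 with DESeq2, 68 and 37 without TMM factors, 25 and 37 with no replicate block, 9 and 34 with Cga at least 4% and Lhb at least 1%, 19 and 51 without the 7.6% deepest members, 19 and 43 without members with 2 or more stem markers, 82 and 129 with ranking on 1 of 2 random sets of UMIs, and 7 and 46 with cells ranked separately below and above the median Lhb share. Ranking by Fshb share gave 194 and 230, and by Lhb share 390 and 477. The number higher became 25 without members with any stem marker, 70 with only the outer groups fitted and 19 with 3 groups in place of 4. Pairing by pool (the replicate block) changed no call between classes among the genes named here other than Fos and Jun. Both libraries bear on every fit, and leaving out either left values with no test. Beyond the values given for single libraries, class differences moved by over 1.5 times to 11.79 for Speer4e, 8.83 for Aebp1, 8.82 for Ihh, -3.31 for Ctxn3 and 3.44 for Inhba without library 1, and to 8.88 for Nefl, 7.24 for Ihh, 8.26 for Nmu, -4.95 for Ctxn3, 2.18 for Inhba and 7.23 for Adcyap1r1 without library 2. With the stricter limits 27 of the genes examined between ratio groups lost their call, 18 kept their status, called or not, and 1 changed sign. Spp1, Scg2, Pcsk2 and mt-Nd5 were among the 27. The share of gonadotropes was 3.73% with the stricter and 4.17% with the looser Cga and Lhb limits, 4.09% with Fshb as an alternative to Lhb, 3.97% with Gh and Prl under 5% and 3.72% without the deepest members. The held-out fold between these groups had a mean of 4.90, and other random splits gave 5.13 and 4.75 at the extremes.

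Between classes Sox2 turned to -0.97 without the deepest members, and to -8.90 and -2.68 without members with any or with 2 or more stem markers; it is itself 1 of these markers, so the last 2 values follow from the choice of cells and say nothing of Sox2. Between ratio groups Gnrhr, near 0, turned to 0.094 without TMM factors, 0.12 with stricter and 0.040 with looser limits, 0.019 with Gh and Prl under 5%, 0.12 without the deepest members, 0.14 and 0.11 without stem-marked members, 0.076 on thinned cells and 0.034 with Fshb as an alternative to Lhb, and Nr5a1 to 0.012 without members with any stem marker. Inhbb turned to 0.093 with ranking on 1 of 2 random sets of UMIs.

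Ranked by Fshb share, log2 differences turned to -5.07 for Cpxm2, -3.78 for Sox2, -3.50 for Plat, -5.40 for Slc9a3r1, -5.17 for Ahnak, -4.07 for Cd24a, -7.98 for S100a6, -3.81 for Rbpms, -1.73 for Txnip, -0.24 for Kcnk2 and -0.52 for Dgkk. They turned to 0.46 for Prmt8, 0.33 for Sult5a1, 0.80 for Tgfbr3l, 0.70 for Cga, 0.74 for Gnrhr, 0.82 for Gata2, 0.84 for Inhbb, 0.65 for Chst8, 0.78 for Scg2, 0.71 for Scg5, 0.11 for Pcsk1n, 1.24 for Spp1 and 0.59 for Cxcl14. Ranked by Lhb share they turned to 0.61 for Ppp1r15a, 0.24 for Tmem251, 0.74 for Fosb and 0.21 for Jund. Below and above the median Lhb share they turned to -0.20 for Plat, -0.40 for Cd24a, -0.28 for S100a6, 0.035 for Cga, 0.24 for Gnrhr, 0.48 for Inhbb, 0.091 for Scg2, 0.075 for Scg5 and 0.22 for Spp1. The cause was not tested.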
